A study of Mus musculus with 192 samples.

Results

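The outermost columns of a grid of mouse brain samples were set against the next columns inward, with 17 arrays on each side out of 192 arrays in all. The 17 outermost arrays came from columns 1 and 11 of grid rows C, D and E, and the other 17 from columns 2 and 10 of the same rows. Voxels are small cubes cut from the brain. RNA of each was hybridised on a 2-colour array beside whole brain RNA from mice of the same strain, age and sex, C57BL/6 males at P56, and no group carried a treatment or a mutation. The labels describe the voxel RNA as pooled and do not give the number of animals. The 3 datasets, of 59, 68 and 65 arrays, were harvested independently, and the dataset was the replicate (n = 3). They gave 6, 5 and 6 arrays to each side. The voxel carried Cy3 in datasets 1 and 3 and Cy5 in dataset 2. The labels name no anatomical direction, so the edge is described here by its columns.

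Values are log2 ratios that the authors had centred so that a gene's median over all arrays is 0. They compare positions and do not compare genes. A higher value probably stands for more RNA in the voxel, but the labels do not say which channel is the numerator, and with the opposite numerator every difference below would change sign. A difference is the outermost mean minus the mean of the next columns inward, taken within each dataset and then averaged, with its SD over the 3 datasets.

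The edge of the forebrain in such a grid can hold cerebral cortex, and the striatum lies beneath it, separated from it by a sheet of myelinated axons. Cortical excitatory neurons make neurogranin, a postsynaptic protein that binds calmodulin. Striatal projection neurons receive dopamine and pass the signal on through protein kinase A and DARPP-32. Oligodendrocytes wrap axons in myelin and are denser in white matter than in cortex.

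Before the results, several properties of the arrays bear on what follows. Outermost arrays had wider values than their inward neighbours: the median absolute deviation of an outermost array was 0.54, 0.459 and 0.621 in datasets 1 to 3 (median over arrays), and 0.385, 0.358 and 0.42 in the next columns. They also had more missing values, with medians of 2.49%, 2.58% and 1.44% against 0.925%, 2.31% and 0.646%. The arrays of D1 and D2 in dataset 2 were left out. Over the 300 features that varied most among arrays, D1 and D2 of dataset 2 correlated with their labelled position in the other datasets at -0.105 and -0.251. With positions D7 and D6, their places if columns 1 to 7 ran in reverse, they correlated at 0.39 and 0.641. Agreement with the same position was also low for the 34 arrays used, though over 7556 features and not these 300. It ran from -0.0917 to 0.408, with medians by side and dataset of 0.0442 to 0.164. With D1 and D2 of dataset 2 kept as labelled, 0 features were called too. Any 2 of the 34 arrays correlated at between -0.63 and 0.682 over 7556 features. Since the dyes are stated in the labels, and different brain regions can have opposite profiles, no array was turned.

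No gene passed the test between the outermost columns and the next columns inward: limma called 0 of 15475 features at an adjusted p under 0.05 (0%). At an unadjusted p under 0.05 there were 1381, against 773.75 that the threshold alone gives. Of these, 378 were lower in the outermost columns (2.44% of all tested) and 1003 were higher (6.48%). The share that was higher, 72.6%, depended on the scaling. It was 60.3% without array centring (510 lower and 776 higher) and 49% after quantile normalization (588 lower and 564 higher). The median difference over all features was 0.05, with 9319 positive and 6156 negative, and it was 0.0074 after quantile normalization. Values below are therefore given as measured differences, and none is a call unless a sentence says so.

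Nrgn, which encodes neurogranin, was high on both sides of the comparison. Its values ran from 0.08 to 1.08 in the outermost arrays, with a median of 0.52. In the next columns they ran from -0.20 to 1.05, with a median of 0.41. The groups overlapped nearly throughout. The differences in datasets 1 to 3 were 0.16, 0.15 and -0.07, a mean of 0.08 ± 0.13 (SD, n = 3), and the 95% interval ran from -0.22 to 0.39 (adjusted p = 0.853, limma). Of 17 neighbouring pairs, 8 were lower and 9 higher in the outermost position. Further in, Nrgn was lower, at 0.10 ± 0.28 in columns 3 and 9 and at -1.34, -1.28 and -1.24 in columns 5, 6 and 7. Columns 1, 2, 10 and 11 thus formed the high flanks of the Nrgn profile, at 0.50, 0.49, 0.41 and 0.57.

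The lowest p belonged to Ppp1r1b, which encodes DARPP-32, the phosphatase inhibitor of striatal projection neurons. Its outermost values ran from -1.20 to 0.96, with a median of -0.32. In the next columns they ran from -0.49 to 2.55, with a median of 1.82. Every one of 17 neighbouring pairs was lower in the outermost position. The differences were -1.81, -1.48 and -2.16 in datasets 1 to 3, a mean of -1.82 ± 0.34 (SD, n = 3), which is 3.52-fold (95% interval 2.69 to 4.61; adjusted p = 0.243, limma). The mean went from -0.28 ± 0.60 in the outermost columns to 1.53 ± 0.26 in the next and 2.49 ± 0.15 in columns 3 and 9. In the outermost columns dataset 3 held the lowest values and dataset 2 the highest, which widened the SD of that mean. In these tissue samples, fewer cells of a type and less RNA per cell cannot be told apart.

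Tgfa, which encodes transforming growth factor alpha, a ligand of the epidermal growth factor receptor, followed the same course. Its outermost values ran from -0.90 to 0.68 with a median of -0.39, and its next-column values from -0.24 to 2.33 with a median of 1.25. The difference was -1.32 ± 0.23 (SD, n = 3; adjusted p = 0.261, limma), lower in 16 of 17 pairs. The exception was column 1 against 2 in row E of dataset 1. Ppp1r1b and Tgfa were the 2 genes that passed when the test was limited to the 11576 features measured on every array used, with limma adjusted p of 0.00837 and 0.0227 and unchanged differences. In that test both were called lower in the outermost columns.

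**Figure D1:**
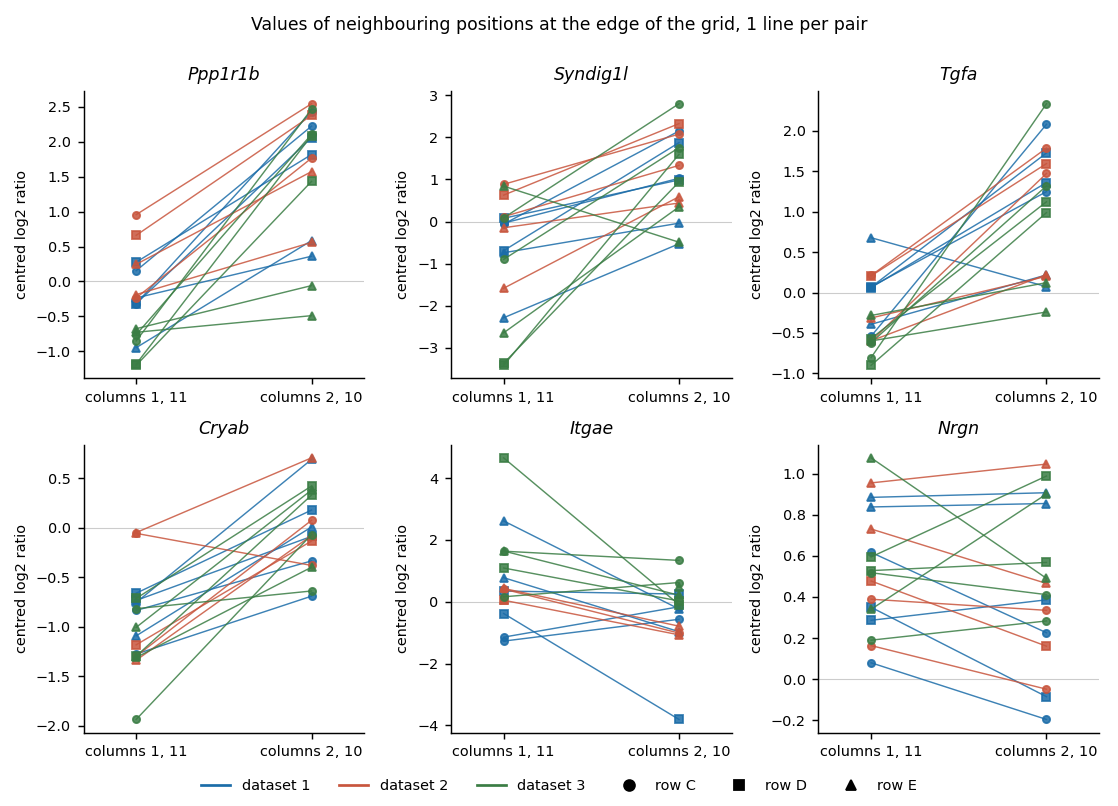
Centred log2 ratio (y axis) of 6 genes on each array of the outermost columns (1 and 11) and the next columns inward (2 and 10); each line joins neighbouring positions of 1 dataset, colours are datasets and symbols grid rows, and a lone point has no measured neighbour. All 17 Ppp1r1b lines and 16 of 17 for Tgfa, Syndig1l and Cryab climb to the inner column, while the Nrgn lines go both ways and the Itgae lines carry a few extreme arrays.

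Syndig1l, a membrane protein gene known for its expression in the caudate putamen, had the largest negative difference of the named genes. Its outermost values ran from -3.42 to 0.88 with a median of -0.15, and its next-column values from -0.53 to 2.80 with a median of 1.03. The difference was -1.88 ± 0.74 (SD, n = 3; adjusted p = 0.544, limma), and 16 of 17 pairs were lower. Dataset 3 gave -2.73 and the other datasets -1.54 and -1.38. The arrays D1 and D11 of dataset 3, at -3.42 and -3.37, were its lowest.

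Rasd2, which encodes the striatal small GTPase Rhes, ran from -0.84 to 0.75 in the outermost arrays and from -0.32 to 1.93 in the next columns, with medians of -0.03 and 0.97. It differed by -0.92 ± 0.33, and 15 of 17 pairs were lower. Actn2, which encodes an actin-binding alpha-actinin of muscle and dendritic spines, ran from -0.94 to 0.51 and from -0.93 to 2.07, and differed by -0.78 ± 0.27 with 16 of 17 pairs lower. Meis2, a homeobox transcription factor of striatal neurons, differed by -0.69 ± 0.24 with 17 of 17 pairs lower. Its 2 rows on the array gave -0.38 and -0.999. All of these had an adjusted p of 0.544 in limma.

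Of the 38 genes listed for striatal projection neurons, 13 were measured and their median difference was -0.24. Of the 13, 12 had a negative difference and 6 an unadjusted p under 0.05, all in the lower direction. Over all features, 2.44% were lower at that threshold. The same sign in all 3 datasets was found for 10 members on the lower side and 0 on the higher, while over all features 10.5% had the same sign lower and 22.7% higher. Spock3, at -0.84 ± 0.76, was the remaining member with an unadjusted p under 0.05. The small differences included Foxp1 (-0.19 ± 0.08), a transcription factor of striatal neurons, and Arpp21 (-0.12 ± 0.11), a cAMP-regulated phosphoprotein. Rasgrp2 was the 1 member with a positive difference, 0.34 ± 0.55, and its datasets disagreed in sign.

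The mean differences of the striatal genes Ppp1r1b, Rasd2, Syndig1l, Actn2 and Meis2 were smaller in row E than in rows C and D. Those of Tgfa, which is not on the striatal list, were smaller there too. In Ppp1r1b the difference was -2.43 ± 0.65 in row C, -2.21 ± 0.66 in row D and -0.84 ± 0.36 in row E. Tgfa gave -2.08 ± 0.39, -1.55 ± 0.21 and -0.35 ± 0.33 in the same rows, and Rasd2 gave -1.46 ± 0.67, -1.11 ± 0.57 and -0.20 ± 0.25. Syndig1l gave -1.84 ± 0.76, -2.70 ± 1.70 and -1.15 ± 0.29, but its sides disagreed. At columns 11 and 10 its row E pairs were -1.76, -2.18 and -2.99 in datasets 1 to 3, against -1.07, -1.19 and -2.66 in row C. Its row E pairs at columns 1 and 2 were -0.70, -0.59 and 1.33. With 11 arrays a side in rows C and D, the 2 columns did not overlap at all for 4 of the 15475 features, each lower in the outermost columns (0.0258%), and for 0 in the higher direction (0%). Those 4 were Ppp1r1b, Tgfa, Rasd2 and Syndig1l. For Ppp1r1b the highest outermost value in these rows was 0.96 and the lowest next-column value 1.43. The margin was narrower for Syndig1l, at 0.88 against 0.94. This count and the choice of rows followed from seeing the values.

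The contrast of row C with row E was tested over 12038 features, and limma called 0 (0%), with 400 at an unadjusted p under 0.05 against 601.9 from the threshold alone. Tgfa had the smallest p in the lower direction, with row C minus row E at -1.73 ± 0.52 (adjusted p = 0.981, limma). Rangrf, which encodes a Ran guanine nucleotide release factor, was next at -1.97 ± 1.24. In the other direction were Eps8l2, which encodes a regulator of actin, at 1.44 ± 0.61 and Kdelr2, a receptor that returns proteins to the endoplasmic reticulum, at 1.22 ± 0.43, both at the same adjusted p. The row pattern of Tgfa and the striatal genes is therefore a description of 3 datasets.

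**Figure D2:**
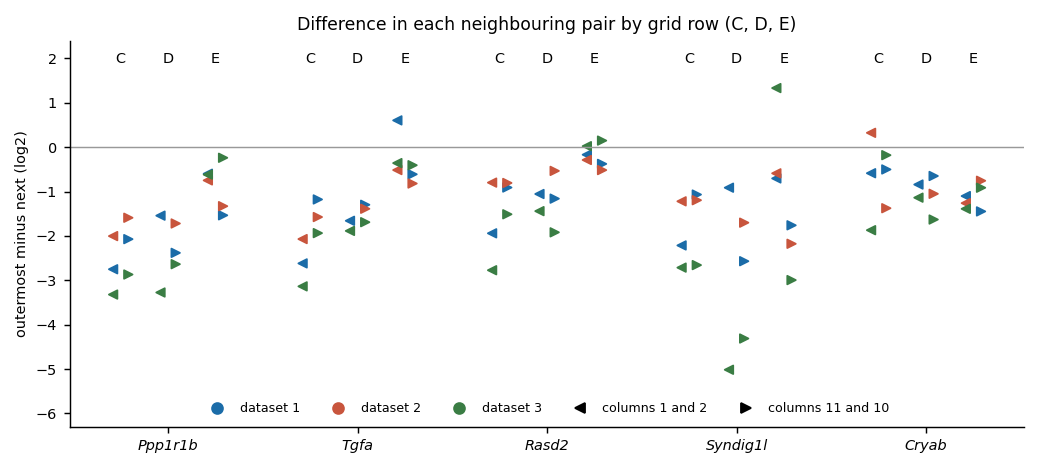
Difference of each neighbouring pair, outermost minus next inward in log2 units (y axis), for 5 genes split by grid row C, D and E; colours are datasets and the direction of the triangle gives the side of the grid. Ppp1r1b, Tgfa and Rasd2 lie nearest 0 in row E, with row means of -0.84, -0.35 and -0.20, whereas Cryab is at -1.14 there.

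Genes of oligodendrocytes and myelin also had differences mostly below 0. Cryab, which encodes the small heat shock protein alpha-B crystallin found in oligodendrocytes, ran from -1.94 to -0.05 in the outermost arrays, with a median of -1.01. In the next columns it ran from -0.69 to 0.71, with a median of -0.07. Its difference was -0.95 ± 0.20 (SD, n = 3; adjusted p = 0.544, limma), and 16 of 17 pairs were lower. No outermost array was above 0. Unlike those of Ppp1r1b, Tgfa and Rasd2, its row means were not nearest 0 in row E, at -0.70 ± 0.28, -1.06 ± 0.32 and -1.14 ± 0.13 in rows C, D and E.

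Bcas1, a gene of maturing and myelinating oligodendrocytes, ran from -2.60 to 0.07 in the outermost arrays and from -1.59 to 0.30 in the next columns. Its difference was -0.90 ± 0.44, with 17 of 17 pairs lower. Qdpr, which encodes the reductase that recycles tetrahydrobiopterin, differed by -0.65 ± 0.24, also in 17 of 17 pairs, and its 2 rows gave -0.58 and -0.73. Tspan2, a tetraspanin of oligodendrocytes, differed by -0.93 ± 0.61. Mbp, which encodes myelin basic protein, differed by -0.33 ± 0.06 over the datasets, yet only 9 of 17 pairs were lower and 8 were higher.

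Of the 32 genes listed for oligodendrocytes and myelin, 8 were measured, with a median difference of -0.49. Of these 8, 7 had a negative difference in all 3 datasets and 6 an unadjusted p under 0.05, all lower. Over all features, 10.5% were lower in all 3 datasets and 2.44% were lower at that threshold. Nkx6-2, a homeobox gene of oligodendrocytes, was the exception at 0.50 ± 0.56. Car2 (-0.31 ± 0.09), which encodes carbonic anhydrase, and Gsn (-0.30 ± 0.26), which encodes gelsolin, made up the list.

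Along the whole grid, Cryab and Bcas1 were lowest in the outermost columns, whereas Ppp1r1b was low both there and in the middle, and the peaks lay in different columns. Ppp1r1b was at -0.40 in column 1, 1.40 in column 2 and 2.58 in column 3, and then at -0.89 in column 6. Cryab was at -0.98, -0.05 and 0.62 in columns 1 to 3, reached 1.18 in column 4 and was still at 0.30 in column 6. Bcas1 had its lowest values in columns 1 and 11, at -1.15 and -1.17, and its highest in columns 4 and 8, at 1.19 and 1.09. On the opposite side Ppp1r1b was at 1.60 in column 10 and -0.22 in column 11, and Cryab at 0.02 and -0.92. The profiles were close to mirror images for these genes.

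**Figure D3:**
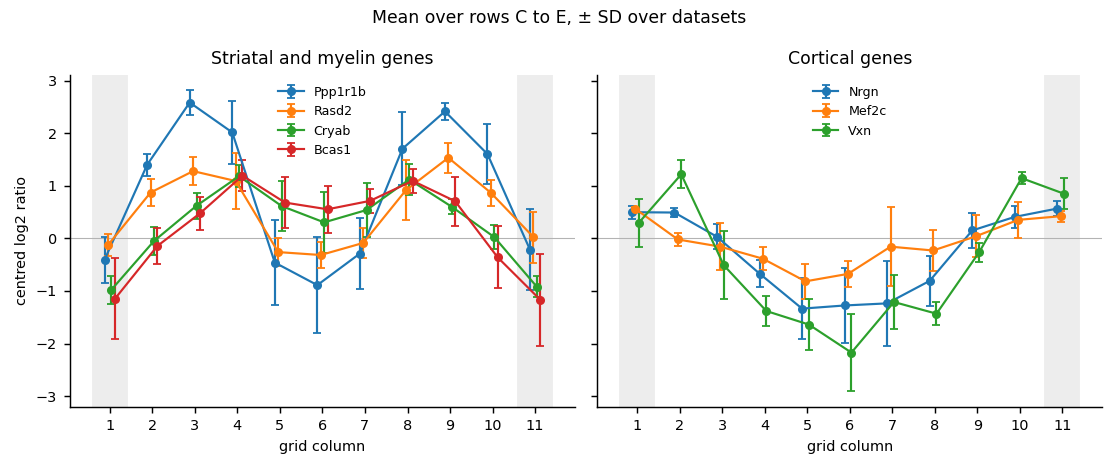
Centred log2 ratio (y axis) by grid column (x axis), as the mean over rows C to E and then over the 3 datasets, with bars of ± 1 SD over datasets; grey bands mark columns 1 and 11. The row D arrays of dataset 2 whose place is in doubt are not included. Ppp1r1b and Rasd2 peak in columns 3 and 9, Cryab and Bcas1 in columns 4 and 8, Nrgn is highest at both flanks, and Vxn is higher in columns 2 and 10 than in columns 1 and 11.

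Cortical genes did not share a direction. Of 36 listed for cortical excitatory neurons, 9 were measured, 6 with a positive difference, where 9319 of all 15475 features were positive. The median of the 9 was 0.08. The sign of that median turned to -0.06 after quantile normalization. Mef2c, a transcription factor of excitatory neurons, differed by 0.31 ± 0.13 with 13 of 17 pairs higher. Tle4, a corepressor of deep cortical layers, differed by -0.47 ± 0.08 with 12 of 17 pairs lower. Both had an unadjusted p under 0.05, and their adjusted p in limma were 0.550 and 0.544. Fezf2, a regulator of corticofugal neurons, was at 0.00 ± 0.05, and Cux1, a marker of upper layers, at 0.18 ± 0.10.

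Vxn, a gene of the cortical list that encodes vexin, was the member with the largest difference, -0.58 ± 0.52. Its datasets gave 0.01, -0.84 and -0.92, so the value rested on datasets 2 and 3. Vxn peaked in the second columns, at 1.22 in column 2 and 1.15 in column 10, against 0.29 and 0.85 in columns 1 and 11 and -0.51 and -0.27 in columns 3 and 9. The markers of claustrum, insular and piriform cortex (4 of 18 measured) had a median of 0.01, and their largest member, Lxn, which encodes the carboxypeptidase inhibitor latexin, differed by -0.27 ± 0.39 with 13 of 17 pairs lower.

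A further test asked whether the step at the edge differed from the step between columns 2 and 10 and columns 3 and 9. Columns 3 and 9 gave 5, 5 and 6 arrays in datasets 1 to 3. Dataset 1 had no E3, and D3 of dataset 2 was left out with D1 and D2. Limma called 0 of 15465 features (0%), with 932 at an unadjusted p under 0.05 against 773.25 from the threshold. Of these, 238 were lower and 694 higher. Itgae had the smallest p, with the edge step minus the inner step at 1.78 ± 0.17, and Armcx2 had 1.35 ± 0.27 (adjusted p = 0.359 and 0.814, limma). Their scatter and missing values are given below. Vxn had the smallest p in the lower direction, where the edge step minus the inner step was -2.14 ± 0.44 (adjusted p = 0.359, limma). Limited to features measured on every array used, Vxn was the 1 call of this test (adjusted p = 0.0191, limma). Cse1l, which encodes a nuclear export receptor, had -1.18 ± 0.25. For Ppp1r1b the edge step was the larger of its steps, with a difference of -0.86 ± 0.11, and for Cryab the value was -0.34 ± 0.30 (adjusted p = 0.814 and 0.834, limma). Both genes were higher again in the third columns than in the second, by 0.95 and 0.61.

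Other genes with the smallest p among those lower in the outermost columns in every dataset had mixed functions. They were Scd2, a fatty acid desaturase (-0.78 ± 0.28), Tmed7, a cargo receptor of the early secretory pathway (-0.67 ± 0.18), Mtch2, a mitochondrial outer membrane protein (-0.63 ± 0.07), B9d1, a protein of the ciliary transition zone (-0.63 ± 0.14), Klf9, a hormone-responsive transcription factor (-0.70 ± 0.28), and Klhl13, an adaptor of a ubiquitin ligase (-0.58 ± 0.10). Klf9 was lower in 17 of 17 pairs. B9d1 was lower in 9 and higher in 8, so its mean did not reflect most positions. The 2 rows of Klhl13 gave -0.86 and -0.27. Over all features, 13 were lower in every measured pair (0.084%) and 2 higher in every one (0.0129%). The 2 were Nectin3, a cell adhesion gene, at 0.61 ± 0.21 and Zfp984, a zinc finger gene measured in 14 pairs, at 0.83 ± 0.90, and both were looked up after their values were seen.

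Genes higher in the outermost columns were measured less completely and with more scatter. Of the 15 with the smallest p in that direction, 5 were measured on all 34 arrays and 0 were higher in every measured pair. Of the 15 in the lower direction, 15 were measured on all 34 and 5 were lower in every pair. Over all features, 75.7% were on all 34 arrays, against 79.9% of the features lower and 50.5% of those higher at an unadjusted p under 0.05. The median SD of the outermost arrays was 1.08 for the 15 higher genes and 0.595 for the 15 lower ones. The part of missing values and scatter in the higher genes was not tested.

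Itgae, which encodes the integrin alpha E of intraepithelial lymphocytes, had the smallest p of the higher genes. Its 15 outermost values ran from -1.27 to 4.66 with a median of 0.41, and its 15 next-column values from -3.81 to 1.34 with a median of -0.16. The groups overlapped over most of their range. The difference was 1.22 ± 0.17 (SD, n = 3; adjusted p = 0.261, limma), with 11 of 14 pairs higher. Without the array D1 of dataset 3 it was 0.99, and with medians over arrays it was 0.97.

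Podxl2, which encodes the sialomucin endoglycan, ran from -1.09 to 2.88 in the outermost arrays and from -2.38 to 0.95 in the next columns, and differed by 1.10 ± 0.42. Armcx2, an armadillo repeat gene of the X chromosome, ran from -1.64 to 4.18 and from -1.70 to 0.75, and differed by 0.86 ± 0.25. Without D1 of dataset 3, Armcx2 was at 0.62. Zfp185, whose product binds actin, differed by 0.69 ± 0.08, but by 0.33 with medians over arrays. Mylk3, a myosin light chain kinase of heart muscle, differed by 0.78 ± 0.22 and by 0.50 with medians. Gp1bb, a subunit of the platelet receptor for von Willebrand factor, differed by 0.72 ± 0.16, and its outermost values spanned -3.64 to 3.86.

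The remaining higher genes had differences between 0.56 and 1.26. The largest was Mavs, an adaptor of antiviral signalling, at 1.26 ± 0.71, with 10 of 15 pairs higher. The others were Crygc, a lens crystallin (0.76 ± 0.31), Hmbox1, a homeobox factor (0.75 ± 0.25), Odf1, a sperm tail protein (0.69 ± 0.18), Vnn1, a pantetheinase (0.61 ± 0.07), Smpd2, a sphingomyelinase (0.60 ± 0.19), Cyp1b1, a cytochrome P450 (0.59 ± 0.13), Nbeal2, a protein of platelet granules (0.56 ± 0.08), and BC147527, a gene named after a cDNA (0.63 ± 0.17). All had an adjusted p of 0.544 in limma. Several of these values depended on the setting. With medians over arrays Hmbox1 was at 0.24, BC147527 at 0.31 and Cyp1b1 at 0.34, and without row C Nbeal2 was at 0.16 and Smpd2 at 0.36. Odf1 was at 0.42 after quantile normalization. Vnn1 was at 0.25 in columns 11 and 10 only, and the 1 of its 2 rows that could be tested gave 0.36.

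Most markers of the covering tissues of the brain had small positive differences. Of 18 listed for the meninges, 11 were measured, 10 with a positive difference, where 9319 of all 15475 features were positive too. The list's median was 0.20, and 0.17 after quantile normalization. Of these, 4 had a positive difference in all 3 datasets, where 22.7% of all features had one. Dcn, which encodes the proteoglycan decorin, differed by 0.35 ± 0.10 and Col1a2, a collagen gene, by 0.36 ± 0.25, each with an unadjusted p under 0.05. Col1a2 turned to -0.04 when floor values were kept. The 6 measured blood vessel genes had a median of 0.25, and Esam, an endothelial adhesion gene measured in 15 pairs, differed by 0.58 ± 0.15. Sparc, a matrix gene of endothelium, was at -0.21 ± 0.09.

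The other cell type lists had few measured genes. Astrocyte genes (6 measured) had a median of -0.08, with Cst3 the largest in size at -0.14 ± 0.48. Microglial genes (4 measured) had a median of -0.02. The 3 complement genes of that list lay between -0.30 and 0.10, while Laptm5, a lysosomal membrane protein gene, was at 0.60 ± 0.84. Laptm5 rested on dataset 1, at 1.57, and was at 0.12 without it. The 3 inhibitory neuron genes had a median of -0.23, and Slc32a1, the vesicular GABA transporter, differed by -0.66 ± 0.65. Thalamic genes (6 measured) had a median of 0.12. Tcf7l2, which was at 2.31 in column 6, differed by 0.57 ± 0.68, mostly through dataset 3 at 1.34. The 5 choroid plexus genes had a median of 0.02. Ttr, which encodes the carrier transthyretin, was their largest at 0.57 ± 0.48, with 0.10, 1.06 and 0.56 in datasets 1 to 3 and an unadjusted p under 0.05. It was 0.33 without dataset 2 and 0.22 with medians over arrays. The 2 blood cell genes had a median of 0.04, and Alas2, an enzyme of haem synthesis, was at 0.35 ± 0.51, but at 0.013 with medians over arrays.

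**Figure D4:**
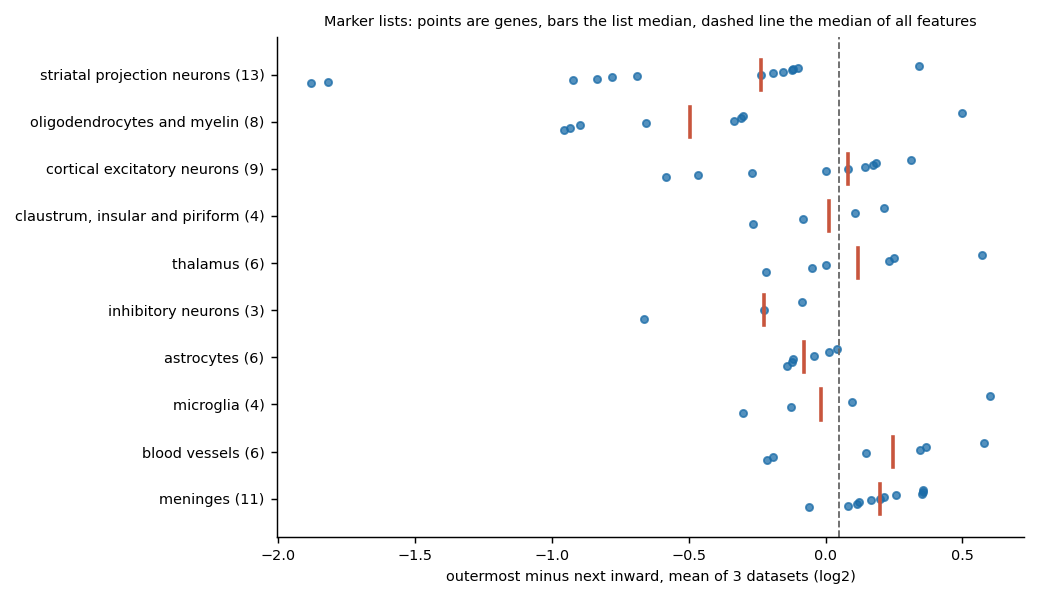
Differences, outermost minus next inward in log2 units (x axis), of the measured genes of 10 cell type lists (y axis, number measured in brackets); points are genes, red bars list medians and the dashed line the median of all features, 0.05. The striatal and myelin lists reach furthest to the left, with medians of -0.24 and -0.49, and no gene shown passed the test after adjustment.

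Genes of protein synthesis and energy metabolism were mostly lower in the outermost columns by small amounts. Of 90 ribosomal protein genes, 74 were measured, 66 with a negative difference, and their median was -0.15. Of these 74, 34 were lower in all 3 datasets and 3 had an unadjusted p under 0.05. Over all 15475 features, 6156 had a negative difference and 10.5% were lower in all 3 datasets. At an unadjusted p under 0.05, 2.44% of all features were lower and 6.48% higher. Of 117 genes of oxidative phosphorylation, 69 were measured, 54 with a negative difference, and the median was -0.19, with 12 lower and 1 higher at an unadjusted p under 0.05. Ndufv2, a subunit of respiratory complex I, differed by -0.52 ± 0.11 and was lower in 17 of 17 pairs. Cox7b, a subunit of cytochrome c oxidase, differed by -0.81 ± 0.52. Dataset 2, with the opposite dyes, gave the lowest median of both lists, at -0.29 and -0.42, against -0.06 and -0.04 in dataset 1. The dye and the dataset cannot be told apart.

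Both sides of the grid were also compared with each other. Limma called 0 of 11715 features (0%) for a difference between columns 1 and 2 and columns 11 and 10, with 1185 at an unadjusted p under 0.05 against 585.75 from the threshold. Ppp1r1b differed by -1.80 ± 0.54 at columns 1 and 2 and by -1.82 ± 0.24 at columns 11 and 10, and Cryab by -0.93 ± 0.50 and -0.94 ± 0.10. Syndig1l gave -1.44 ± 0.63 and -2.27 ± 0.91 (adjusted p of the contrast = 0.481, limma). As the first side minus the second, the 2 named genes with the smallest p in each direction were taken. In the positive direction they were Mob1b, a regulator of Hippo signalling kinases, at 1.52 ± 0.53 and Ppp6r3, a phosphatase subunit, at 1.17 ± 0.15. In the negative direction they were Creg1, a secreted glycoprotein, at -1.41 ± 0.61 and Samd8, an enzyme of sphingolipid metabolism, at -0.97 ± 0.19.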

How the data were processed

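The authors deposited 1 table of log2 ratios of voxel and whole brain RNA, with 20847 rows and 192 arrays. How they scanned, background-corrected and normalized the arrays is not given in the sources used here. From the values, 99.9% of rows had a median within 0.001 of 0, and -6.64 (a ratio of 0.01) was a floor that held 0.483% of values. Another 1.93% were missing.

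Floor values were treated as missing. The median over completely measured rows was subtracted from every array (largest shift 0.353). A row had to be measured on 80% or more of each dataset's arrays, 20 control rows were dropped, and rows of 1 symbol were averaged, leaving 15610 features. Names came from the platform annotation: 13162 rows had 1 symbol, 317 several and 49 one of another species, and 12982 matched RefSeq genes. The 15475 features with at least 3 arrays a side in each dataset were tested with limma 3.58.1 in R 4.3.3, as a moderated one-sample test on 1 difference per dataset (2 residual degrees of freedom before moderation), two-sided, with Benjamini-Hochberg adjustment. The script was run on simulated data with independent noise on each array, no dataset effect and large added differences. That run checks the code and does not measure how many differences of the sizes reported here would be found. Precision is limited by the number of datasets, which is 3.

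The dataset number pairs the sides because it names a harvest. Deviations of the sides correlated at 0.471, 0.637 and 0.732 within datasets and at -0.633 to 0.102 between different datasets. The dye also differed between datasets, and the part of harvest and dye in these values was not tested. Named genes were Nrgn, the 15 with the smallest p in each direction among those of the same sign in 3 datasets, and the largest member of each gene list. None being called, array values are given for Nrgn and the first 6 of each direction. The members, lists and tests were chosen with earlier results of these data known. Alternatives changed the scaling, floor, filter, averaging, prior, rows, columns, datasets and arrays used.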

Additional observations from a re-analysis of the deposited data

How the results depend on the processing

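The count of 0 calls held under each alternative tried except 1. Limited to features measured on every array used, 2 were called (Ppp1r1b and Tgfa). In that setting the test of the edge step against the inner step had 1 call, Vxn, at -2.14. Fewer features were tested there, and the unadjusted p in limma fell too. It went from 1.57e-05 to 7.23e-07 for Ppp1r1b and from 4.58e-05 to 3.92e-06 for Tgfa, at unchanged differences. Limma draws part of each variance from all features tested, and that set differed. Leaving out each dataset gave 0 to 0 calls in every test, and leaving out each of the 34 arrays, an alternative chosen after seeing the data, gave 0 calls, with Ppp1r1b between -1.93 and -1.74. The fit without the replicate block, which ignores the pairing by dataset, called 0 features and changed no other call. Of the single gene values under alternatives, 963 kept direction and side of the threshold, 5 reversed and 2 passed it (Ppp1r1b -1.82, Tgfa -1.32). The 5 were Cst3 without dataset 2 (0.10, within a range of -0.38 to 0.10 over the datasets left out), Nrgn after quantile normalization (-0.062), Col1a2 with floor values kept (-0.043), and Baiap2 without row C (0.046) and in columns 11 and 10 only (0.10). The cause was not tested. The striatal median was -0.26 without centring, -0.36 after quantile normalization and -0.29, -0.28 and -0.33 in datasets 1 to 3. The cortical median was -0.062 after quantile normalization and -0.022 in dataset 3, and the myelin median -0.59 in dataset 3. With 3 datasets and row-centred ratios, absolute levels and small differences are out of reach.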

Other observations

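Signalling genes of neurons went both ways at the edge, and none passed the test. Of 22 measured genes of G protein and cAMP signalling, 13 had a negative difference, where 6156 of all 15475 features had one. The median of the 22 was -0.04. Prkar2b, a regulatory subunit of protein kinase A, was at -0.71 ± 0.37 and lower in 15 of 17 pairs, and Pde2a, a cyclic nucleotide phosphodiesterase, was at -0.47 ± 0.24, also in 15 of 17. Prkar2b was at -1.28 ± 0.56 at columns 1 and 2 and at -0.20 ± 0.24 at columns 11 and 10. Of 21 measured calcium and calmodulin genes the median was -0.05. Caln1, which encodes the calcium-binding protein calneuron, was at -0.67 ± 0.33 and Cacna2d1, a calcium channel subunit, at 0.37 ± 0.07.

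The 26 measured genes of axon growth and guidance had a median of 0.09, and 10 were higher in all 3 datasets, where 22.7% of all features were. Slit2, a repellent of growing axons, was at 0.55 ± 0.48. Potassium channel genes (8 measured) had a median of -0.13, with Kcnmb4, an accessory subunit, at 0.37 ± 0.06. Of 16 measured pairs, Kcnmb4 was higher in 10 and lower in 6. The 10 genes of glutamate receptors and the postsynapse had a median of 0.05, with Baiap2 at -0.23 ± 0.08, and the 10 immediate early genes one of -0.01, with Egr1 at -0.44 ± 0.35. General neuronal genes (5 measured) had a median of -0.18, with Uchl1 at -0.26 ± 0.27. The 8 genes of amygdala and hippocampus had a median of 0.09, and Calb1, which encodes calbindin, was positive in each of its 5 rows, at 0.33 ± 0.10 on average. Of 18 chaperone genes, 15 had a negative difference, where 6156 of all 15475 features had one. The median of the 18 was -0.20, and Cct8, a subunit of the cytosolic chaperonin, was at -0.68 ± 0.41.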
